A study of Arabidopsis thaliana with 32 samples.

Results

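Late light-risen genes of the hy5 mutant are the genes whose transcripts stayed near their dark level after 1.5 h of white light and were at least 1 log2 unit higher after 4 h. They were chosen on the scale log2(CPM + 1), where CPM is the authors' deposited count of a gene scaled for the size of its library. The difference of the hy5 means between 1.5 h of light and the dark had to lie between -0.3 and 0.3, and the difference between 4 h and 1.5 h had to be at least 1. Of 19685 genes in the table, 132 met both conditions, and all 132 are described below as the members. The hy5 libraries chose the members, so every hy5 value is a description with no test, and the tests below use the libraries of the other genotypes.

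The 32 libraries of 12 groups hold poly(A) RNA of entire Arabidopsis thaliana seedlings, each library made from a pool of about 40 seedlings. The groups are 3 lines that carry an added HY5 gene in the hy5 mutant, the hy5 mutant itself, and the wild type Col, which is the Columbia accession. The line SRDX carries 35S:FLASH-HY5-SRDX, a tagged HY5 joined to a repression motif. The line VP16 carries 35S:FLASH-HY5-VP16, the same protein joined to a viral activation domain, and the line OX carries 35S:FLASH-HY5 with no added domain. The 35S promoter is a strong viral promoter that is active in most plant cells, so these lines make HY5 outside its own pattern and amount. The labels name neither the hy5 allele nor how many independent plants stand behind each line. All groups received 1 h of white light to start germination and then 3 days of darkness. Dark groups were collected at that point, and light groups after a further 1.5 h or 4 h under LED light made to resemble white light, at 100 µmol m−2 s−1. In the dark and at 1.5 h there were 3 libraries of each genotype except SRDX, which had 2. At 4 h only hy5 and SRDX were sequenced, with 2 libraries each. Any difference in handling between the 4 h libraries and the others cannot be told apart from time in light. The labels do not say that replicates were separate cultures, so the p-values measure the spread between these libraries, which may be technical.

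HY5 is a bZIP transcription factor that binds DNA sites with an ACGT core, among them the G-box, and promotes the change from growth in darkness to growth in light. In the dark the HY5 protein is removed through the COP1 ubiquitin ligase, and in light it accumulates and raises genes of pigment, photoprotection and nutrient pathways. Light also acts through phytochromes, cryptochromes and other transcription factors, and therefore hy5 seedlings still respond to light, although with long hypocotyls and little anthocyanin.

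HY5 was itself a member. Its transcript in hy5 was 21.4, 19.4 and 24.4 CPM in darkness, 25.2, 25.1 and 25.1 CPM at 1.5 h and 85.4 and 79.1 CPM at 4 h. RNA from the locus was thus still counted in the mutant. In Col it was 208, 207 and 232 CPM in light, against 21.7, 22 and 29.98 CPM in the dark. The lines, whose reads include those of the added gene, were far above Col: in the dark the means were 1026 CPM in SRDX, 2338 CPM in VP16 and 14279 CPM in OX, against 24.6 CPM in Col. The libraries held 7499581 to 21420680 reads, 1 read stood for 0.0457 to 0.131 CPM, and the floor of 3 reads was 0.137 to 0.394 CPM, which covers counting error only. All listed markers of root, shoot epidermis and mesophyll were above 0 in every group, and of 3 guard cell markers 1 was at 0 in dark Col. Markers of the seed stood apart in 1 group. The sum over 6 seed genes was 103 to 109 CPM in SRDX at 4 h and 21.6 to 38.6 CPM in hy5 at 4 h, and in every other library it was at most 30.4 CPM. Whole seedlings cannot tell fewer cells of a type from less RNA per cell.

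The stretch before the start of 6 members is shown because these promoters hold the ACGT core that HY5 and other bZIP factors bind, and because the members differ in which lines they rose in. GPX7, AT4G36530 and GCL1 were among those that were higher after 1.5 h of light in Col, OX and VP16. LEA7 and EM1 were higher in SRDX at 4 h, and AT2G16005 was far lower in VP16 than in Col. Each line gives the 250 bases before the annotated start, 5′ to 3′ on the strand of the gene, from the RefSeq TAIR10.1 genome, whose nuclear chromosomes are those of the TAIR10 build named in the submitters' notes. Capitals mark each ACGT core.
GPX7: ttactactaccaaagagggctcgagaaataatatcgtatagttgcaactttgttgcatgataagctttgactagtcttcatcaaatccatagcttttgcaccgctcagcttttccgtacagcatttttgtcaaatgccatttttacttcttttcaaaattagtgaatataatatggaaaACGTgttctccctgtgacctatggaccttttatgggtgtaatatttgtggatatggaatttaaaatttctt
AT4G36530: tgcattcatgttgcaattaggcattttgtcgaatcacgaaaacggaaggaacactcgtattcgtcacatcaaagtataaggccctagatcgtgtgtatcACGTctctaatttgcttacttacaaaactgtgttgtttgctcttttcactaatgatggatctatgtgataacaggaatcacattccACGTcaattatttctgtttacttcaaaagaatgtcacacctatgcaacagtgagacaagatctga
GCL1: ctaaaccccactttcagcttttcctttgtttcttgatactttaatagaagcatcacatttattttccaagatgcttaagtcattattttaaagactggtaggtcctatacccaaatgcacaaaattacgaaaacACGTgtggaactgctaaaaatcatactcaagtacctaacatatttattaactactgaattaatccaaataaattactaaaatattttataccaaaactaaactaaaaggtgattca
LEA7: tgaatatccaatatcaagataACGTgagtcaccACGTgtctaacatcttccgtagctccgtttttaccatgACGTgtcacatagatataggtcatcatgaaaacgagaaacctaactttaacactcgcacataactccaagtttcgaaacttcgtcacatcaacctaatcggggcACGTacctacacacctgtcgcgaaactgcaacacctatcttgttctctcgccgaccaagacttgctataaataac
EM1: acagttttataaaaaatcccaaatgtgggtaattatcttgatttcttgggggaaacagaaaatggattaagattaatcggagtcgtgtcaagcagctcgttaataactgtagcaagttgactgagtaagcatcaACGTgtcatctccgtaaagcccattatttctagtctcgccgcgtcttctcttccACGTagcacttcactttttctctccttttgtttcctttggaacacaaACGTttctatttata
AT2G16005: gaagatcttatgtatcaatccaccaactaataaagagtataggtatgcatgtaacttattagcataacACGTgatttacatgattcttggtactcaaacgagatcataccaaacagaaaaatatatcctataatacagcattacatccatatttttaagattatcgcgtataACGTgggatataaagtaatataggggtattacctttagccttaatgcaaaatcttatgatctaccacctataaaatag
GPX7 is at chr4:15409828-15410077 on the plus strand, AT4G36530 at chr4:17242169-17242418 on the minus strand, GCL1 at chr5:26088278-26088527 on the minus strand, LEA7 at chr1:19619474-19619723 on the plus strand, EM1 at chr3:19214472-19214721 on the plus strand and AT2G16005 at chr2:6960217-6960466 on the minus strand. GPX7 held 1 core, AT4G36530 held 2, GCL1 held 1 inside a G-box, LEA7 held 4 of which 1 lay in a G-box, EM1 held 3 and AT2G16005 held 2 of which 1 lay in a G-box. These 6 were picked because they hold a core: in the same 250 bases, 14 of the 26 members that rose in Col, OX and VP16 light hold none. The other 12, or 46.2%, hold a core, against 44.7% of all genes in these 250 bases. A G-box lies there in 1 of the 26, or 3.85%, against 7.56% of all genes. Over a window of 250 bases before to 50 bases after the start, on either strand, the G-box CACGTG was found in 18 of 132 members, or 13.6% (exact binomial interval 8.29 to 20.7%), and in 9.02% of the 19581 genes of the table with a promoter in the annotation. The core ACGT, which every G-box contains, was found in 56.1% of members and 50.9% of all genes. In this wider window 18 of the 26 members that rose early, or 69.2%, held a core and 3, or 11.5%, a G-box. How these 26 stand against all genes thus depends on the window. The site II element TGGGCC, known from promoters of ribosomal protein and cell division genes, was found in 6 members, or 4.55% (exact binomial interval 1.69 to 9.63%), against 18.8% of all genes. The evening element AAATATCT was in 6.82% of members and 5.78% of all genes, the CCA1-binding site AAAAATCT in 10.6% and 8.07%, the I-box GATAAG in 15.2% and 15.0%, and the telo-box AAACCCTA in 4.55% and 5.4%. These shares describe letters in a window and were not tested.

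In hy5 the late rise of the members was 1.00 to 3.81 on the log2(CPM + 1) scale, with a median of 1.24, against a median of -0.02 over all genes. The largest rises were in CYP706A6, a cytochrome P450, FAH1, the ferulate 5-hydroxylase of sinapate and lignin synthesis, and NIT4, a nitrilase that degrades β-cyanoalanine. CYP706A6 was at 0, 0 and 0 CPM in darkness, 0, 0 and 0.0989 CPM at 1.5 h and 18.6 and 9.75 CPM at 4 h. FAH1 was at 2.07, 2.91 and 2.49 CPM, 3.24, 2.26 and 3.66 CPM and 38.6 and 21.8 CPM at the same times. NIT4 was at 5.91, 5.73 and 7.46 CPM, 8.2, 4.86 and 6.72 CPM and 53.4 and 38.5 CPM. In these as in all 132 members, both libraries at 4 h lay above all 6 earlier hy5 libraries, which follows from the way they were chosen. Many members are scarce transcripts: 48 averaged under 1 CPM in dark hy5 and 51 under 5 CPM at 4 h, while 10 averaged over 100 CPM at 4 h. All 132 passed the filter on low values, 8 of them only through the 4 h libraries of hy5.

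The limits of the choice are close to many genes. At the limit on the late rise, LZF1 lay just inside with 1.0009 and AT5G07475 just outside with 0.9995. At the upper early limit, AT3G53960 lay inside with 0.297 and AT3G48790 outside with 0.303. At the lower one, AT1G56680 lay inside with -0.284 and AT1G52070 outside with -0.306. Another 317 genes were higher by 1 or more at 4 h than at 1.5 h but had passed 0.3 by 1.5 h, and 37 were below -0.3. The 2 libraries of hy5 at 4 h, which helped choose the members, differed widely. Over genes with enough reads, their variance averaged 20.7 times that of counting, the highest of 28 replicate pairs, where the lowest was 3.24. Among members, SWEET4, a sugar transporter, was at 1.5 and 9.61 CPM and LEA7 at 121 and 460.4 CPM. With the second 4 h library left out, 211 genes met the conditions in place of 132, and the 200 largest of them held 107 of the members.

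**Figure D1:**
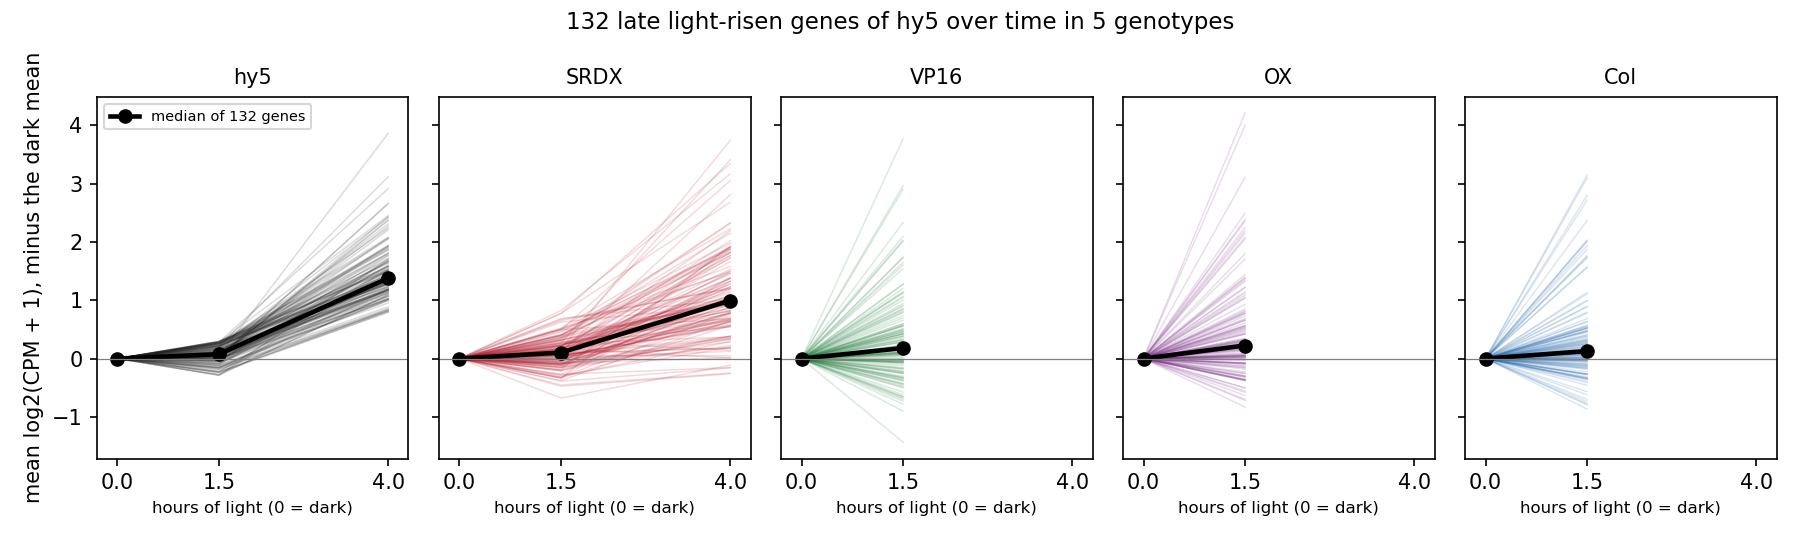
Change of each of the 132 members over hours of light (x axis), as mean log2(CPM + 1) minus the dark mean of the same genotype (y axis), with 1 panel per genotype, 1 thin line per gene and the median in black. The hy5 panel shows the shape that chose the genes, the SRDX panel a median of 0.99 at 4 h, and the other 3 panels end at 1.5 h.

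Most members also rose late in SRDX, the only other genotype with a 4 h time point. From 1.5 h to 4 h, 97 of 132 members rose in SRDX and 0 fell, where 10.8% of all 19685 genes were called higher and 12.2% lower (limma on log2(CPM + 1), adjusted p below 0.05). The median difference of the members was 0.89 on that scale, with -0.02 over all genes, and 59 members were higher by 1 or more. Without the 8 members that passed the filter on low values only through hy5 at 4 h, 93 of 124 rose. At an unadjusted p below 0.05 none of the members was lower either, nor was any by edgeR, which called 97 higher, or DESeq2, which called 94 higher. Against the dark, 107 members were higher in SRDX at 4 h and 0 lower, where the shares over all genes were 23.1% higher and 23.6% lower, or 46.6% in either direction. The call depends on single libraries for many genes: without the second SRDX library at 1.5 h, 63 members were higher, and 55 of the 97 were called with each of the 4 libraries left out in turn.

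After 1.5 h of light SRDX had moved little in these genes. They were chosen for little change at 1.5 h in hy5, the mutant background of SRDX. The small SRDX response is thus not independent of that choice. Only AT5G62340, of the invertase and pectin methylesterase inhibitor family, AAT, an aspartate aminotransferase, AT1G10900, a phosphatidylinositol phosphate kinase, and SEP2, a stress-enhanced light-harvesting-like protein, rose against the dark, and AT2G34170 fell. These are 4 and 1 of 132 members, where 13.9% of all genes were called higher and 12.7% lower, or 26.6% in either direction. This small count was not stable: 8 were called without the second SRDX library at 1.5 h and 3 without the second dark one, and AAT and AT1G10900 were called in every fit that left out 1 library. At an unadjusted p below 0.05, 9 members were higher and 4 lower.

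**Figure D2:**
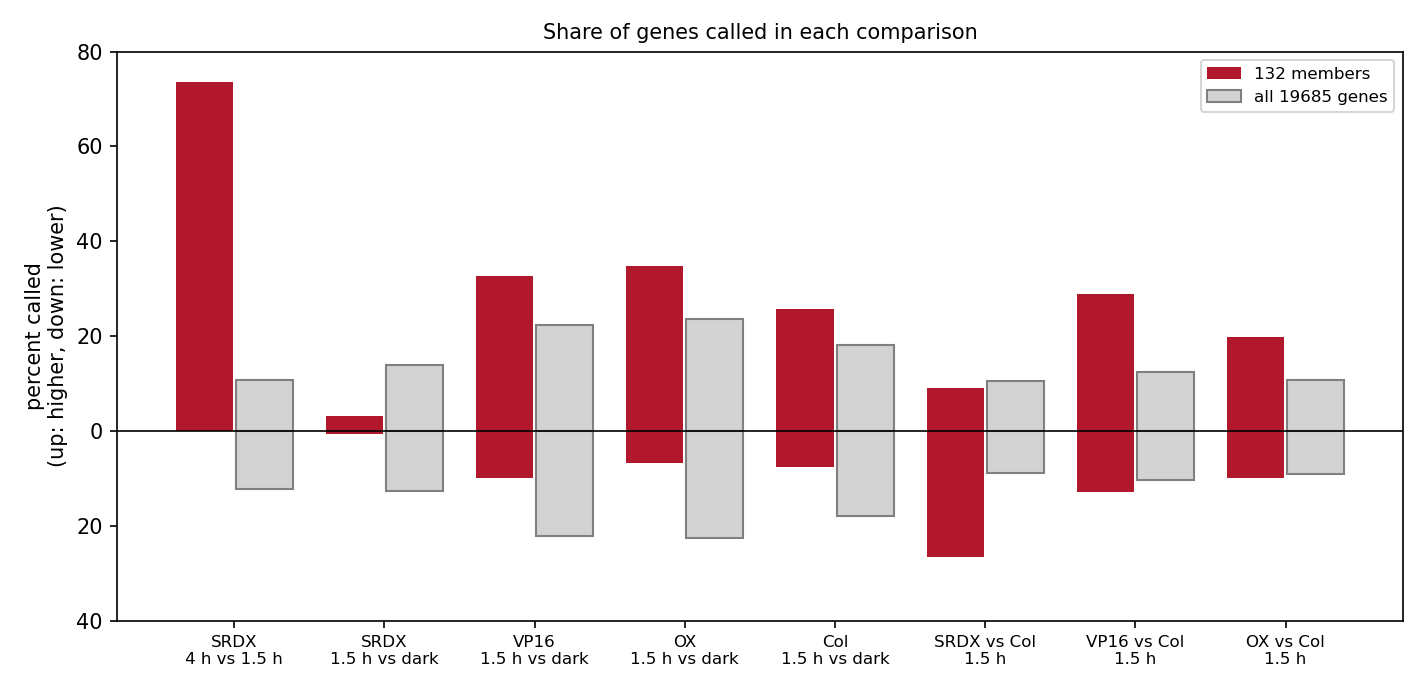
Percent of genes called higher (upward bars) and lower (downward bars) in 8 comparisons (x axis), for the 132 members in red and for all 19685 genes in grey, by limma at an adjusted p below 0.05. The members stand at 73.5% higher in SRDX at 4 h against 1.5 h, and at 3.03% in SRDX at 1.5 h against the dark. They were chosen for little change at 1.5 h in hy5, the mutant background of SRDX.

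In Col, OX and VP16, where 1.5 h is the latest time, a minority of members had already risen. In VP16, 43 of 132 rose and 13 fell, where 22.4% of all genes were called higher and 22.1% lower. In OX, 46 rose and 9 fell, where the shares of all genes were 23.6% and 22.6%. In Col, 34 rose and 10 fell, where the shares were 18.0% and 17.9%. The 34 are 25.8% of members, so the early rise in Col was not far from the share over all genes, whereas falls were fewer, at 7.58%. In all of these 3 genotypes 26 members rose, 55 rose in at least 1, and 77 rose in none. Without the 8 members that passed the filter on low values only through hy5 at 4 h, these counts were 26, 52 and 72 of 124. The shares of all genes that rose in all 3 genotypes or in none were not counted. These joint counts therefore do not set the members apart from other genes. Of the 26, 3 also rose in SRDX at 1.5 h, and these were AT1G10900, AAT and SEP2.

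Members of light signalling and of flavonoid or sinapate synthesis make up 6 of the 132. The grouping by role was made after the values were seen, and no set test was run. All 6 rose after 1.5 h of light in Col, and none rose in SRDX at 1.5 h. Over all members 25.8% rose in Col light and 3.03% in SRDX at 1.5 h, and over all genes 18.0% and 13.9%. PAP1, also called MYB75, is the MYB regulator that turns on anthocyanin genes. It was at 0.147 and 0.11 CPM in dark SRDX, 0.386 and 0.31 CPM at 1.5 h and 0.403 and 0.519 CPM at 4 h. At these times hy5 had 0.0768, 0.182 and 0.166 CPM, 0.381, 0.395 and 0.297 CPM and 1.78 and 2.13 CPM. In OX it was at 30.7, 23.8 and 31 CPM in light, against 0.7, 0 and 1.34 CPM in the dark. Col had 12.9, 9.45 and 6.55 CPM in light, against 0.116, 0.179 and 0.195 CPM in the dark. The light libraries of OX and Col thus lay above every hy5 and SRDX library, with no overlap. The light response of PAP1 was 4.21 log2 units (SE 0.24, adjusted p = 3.36e-15) in OX and 3.15 log2 units (SE 0.24, adjusted p = 3.32e-12) in Col (limma), whereas in SRDX from 1.5 h to 4 h the log2 difference was 0.12 and missed the threshold (adjusted p = 0.819, limma).

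LZF1, the B-box protein BBX22 that acts with HY5, was the member nearest the limit on the late rise. It was at 16.3 and 12.2 CPM in dark SRDX, 11.7 and 10.8 CPM at 1.5 h and 18.9 and 16.2 CPM at 4 h. At these times hy5 had 10.9, 11.2 and 12.1 CPM, 14.4, 12.8 and 11.9 CPM and 29.8 and 24.4 CPM. In Col it was at 35.9, 38.6 and 38 CPM in light, against 11.5, 12.5 and 11.9 CPM in the dark. Every Col library in light therefore exceeded both hy5 libraries at 4 h. Its rise in SRDX from 1.5 h to 4 h was 0.6 log2 units (SE 0.16, adjusted p = 0.00866) by limma, and the call was lost without the second 1.5 h library or the first 4 h library.

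FAH1 and UGT84A3, a glucosyltransferase of sinapate and related acids, and AT4G27560, a glycosyltransferase with a close neighbouring copy that makes its own value uncertain, are the other genes of this group besides HY5. FAH1 was at 3.68 and 2.75 CPM in dark SRDX, 6.57 and 3.65 CPM at 1.5 h and 16.1 and 14.9 CPM at 4 h. VP16 had 35.8, 18.2 and 30.01 CPM of FAH1 in light, against 3.1, 3.17 and 2.09 CPM in the dark. FAH1 rose in SRDX at 4 h by 1.47 log2 units (SE 0.35, adjusted p = 0.00327), a limma call that was lost without the second library at 1.5 h. UGT84A3 moved less in light, with log2 differences of 0.57 in VP16, 1.39 in OX and 0.51 in Col that all passed the test, although 2 of the 6 fits that left out a Col library lost the call in Col. Of the other 20 measured genes of a flavonoid and anthocyanin list, 20 rose in VP16, 16 in OX and 15 in Col after 1.5 h of light, and 9 in SRDX. From 1.5 h to 4 h, 3 of these 20 rose in SRDX and 1 fell.

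A group of 5 genes, named plastid and photoprotection, was put together after the values were seen. It does not hold every plastid member, and 1 of the 5, GPX7, is on the photoprotection list. Another, AT4G15700, was put there without evidence from these data that it belongs to the plastid or to photoprotection. The 5 rose in Col after 1.5 h of light, by a median of 2.37 on the log2 scale, where 18.0% of all genes rose. The call of AT4G15700 was slight, at 0.53 (adjusted p = 0.0487, limma), and its libraries overlapped. In SRDX from 1.5 h to 4 h the median was 0.32 and 1 of the 5, AT1G06690, was called higher. Of all members, 73.5% were called higher there. With ICS2, a chloroplast enzyme left out of the group, 5 of 6 rose in Col with a median of 1.96, and 2 of 6 rose in SRDX from 1.5 h to 4 h with a median of 0.41. ICS2 itself was not called in Col light, at -0.27, and rose in SRDX at 4 h by 1.54. GPX7 is a plastid glutathione peroxidase. It was at 0 and 0.22 CPM in dark SRDX, 0.232 and 0.0619 CPM at 1.5 h and 0.672 and 0.584 CPM at 4 h. At these times hy5 had 0.0768, 0.0909 and 0.0829 CPM, 0, 0.169 and 0.148 CPM and 5.07 and 4.6 CPM. In Col it was at 5.03, 5.07 and 3.2 CPM in light, against 0, 0.119 and 0 CPM in the dark. The hy5 libraries at 4 h thus overlapped the Col light libraries, and both SRDX libraries at 4 h lay below all of them.

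SEP2 and AT1G06690, an oxidoreductase that is found in plastids, were also lower in SRDX than in hy5 at 4 h. Unlike GPX7, they stood higher in Col light than in hy5 at 4 h, with no overlap. SEP2 was at 16.9 and 9.46 CPM in dark SRDX, 20.2 and 20 CPM at 1.5 h and 24.9 and 24.7 CPM at 4 h. At these times hy5 had 17.5, 18.9 and 20.7 CPM, 24.9, 22.7 and 21.7 CPM and 45.2 and 52.2 CPM. Col had 119.5, 123 and 133 CPM in light, against 18.5, 15.2 and 21.2 CPM in the dark. The lowest Col library in light was thus above the highest hy5 library at 4 h, which in turn was above both SRDX libraries at 4 h. AT1G06690 was at 16.1 and 17.5 CPM in SRDX at 4 h and 48.3 and 44.1 CPM in hy5 at 4 h. Col had 95.5, 91.6 and 96.8 CPM of it in light, against 12.8, 11.3 and 14.3 CPM in the dark. AT1G06690 rose in SRDX from 1.5 h to 4 h by 0.32 log2 units (SE 0.11, adjusted p = 0.0412) in limma, a call that each left-out library ended. Of the other 14 genes of a photoprotection and photorepair list, 9 rose in VP16, 9 in OX and 9 in Col after 1.5 h of light, and 3 in SRDX from 1.5 h to 4 h. None of the 35 photosystem and antenna genes, 19 chlorophyll synthesis genes or 17 Calvin cycle genes on lists was a member.

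**Figure D3:**
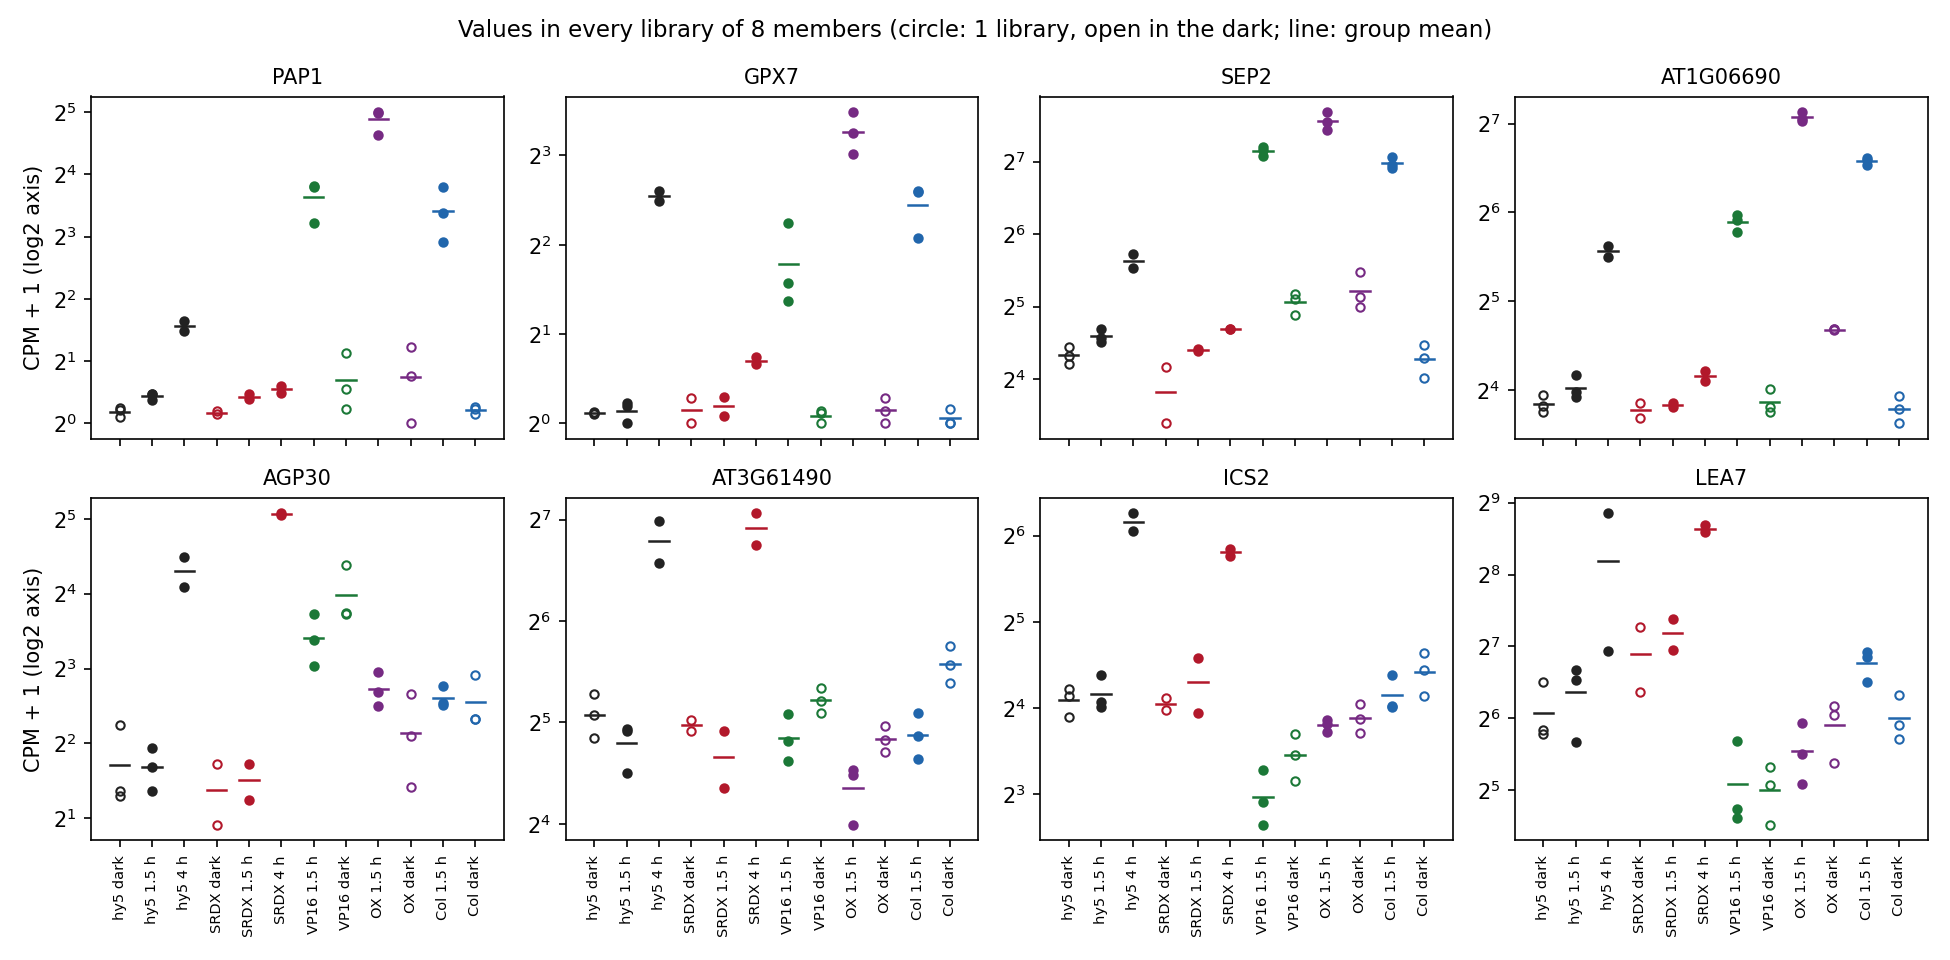
CPM + 1 on a log2 axis for 8 members in every library of the 12 groups (x axis), with open circles for dark libraries, filled circles for light libraries and a line at each group mean. In the upper row the Col, OX and VP16 light libraries stand above those of SRDX at 4 h, and in the lower row the highest libraries are those of hy5 or SRDX at 4 h.

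Channels, pumps and transporters are 15 members, of which 11 rose in SRDX from 1.5 h to 4 h, with a group median of 0.75. This count is near the 73.5% of all members that rose, where 10.8% of all genes did. In Col light 3 of the 15 rose and 2 fell, where 18.0% of all genes were called higher and 17.9% lower. NRT1.7, a nitrate transporter of the phloem, was at 5.74 and 4.73 CPM in dark SRDX, 6.72 and 4.27 CPM at 1.5 h and 16.5 and 21.1 CPM at 4 h, and at 50.03 and 83.1 CPM in hy5 at 4 h. OX had 29.2, 34.1 and 39.7 CPM in light, against 6.7, 4.73 and 9.25 CPM in the dark. The SRDX libraries at 4 h lay above the earlier SRDX ones, the OX light libraries above the dark ones, and the rise in SRDX was 1.62 log2 units (SE 0.22, adjusted p = 6.53e-06) by limma.

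The vacuolar calcium exchangers CAX1 and CAX3 also rose late in SRDX. CAX1 was at 254 and 223 CPM in dark SRDX, 249 and 235 CPM at 1.5 h and 356 and 403 CPM at 4 h, and in hy5 at 4 h at 578 and 559 CPM. CAX3 was at 31.7 and 36.1 CPM, 34.7 and 32 CPM and 71 and 66.4 CPM at the same times in SRDX, and at 79.9 and 122 CPM in hy5 at 4 h. Neither passed the test in light in Col, OX or VP16. The aquaporin RD28, also called PIP2;3, was at 141 and 153 CPM in SRDX at 4 h and 315 and 606 CPM in hy5 at 4 h. HA11, a plasma membrane proton pump, was at 127 and 153 CPM in SRDX at 4 h and 258 and 259 CPM in hy5 at 4 h. For these last 2 genes all hy5 libraries at 4 h lay above all other libraries of the series, and their calls in SRDX from 1.5 h to 4 h were lost without the second 1.5 h or the second 4 h library. NRT2:1, the high-affinity nitrate transporter, was at 0.134 and 0.13 CPM in SRDX at 4 h, which is at or under 3 reads, while hy5 had 2.5 and 3.84 CPM.

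Cell wall and arabinogalactan genes are 13 members, and all 13 rose in SRDX from 1.5 h to 4 h, by 0.96 to 3.57 with a median of 1.44. The shares that rose were 73.5% of all members and 10.8% of all genes. Without the second SRDX library at 1.5 h, 10 of the 13 were called. In light, 2 of the 13 rose and 1 fell in Col, where 18.0% of all genes were called higher and 17.9% lower. AGP30, an arabinogalactan protein known from roots, was at 0.884 and 2.31 CPM in dark SRDX, 2.32 and 1.36 CPM at 1.5 h and 32.1 and 32.6 CPM at 4 h, and at 21.6 and 16 CPM in hy5 at 4 h. Its 4 libraries at 4 h stood above every hy5, SRDX, OX and Col library of the earlier times. VP16 libraries are not included there: in dark VP16 AGP30 averaged 14.8 CPM (SD 4.32), against 4.87 CPM in dark Col. This dark difference was 1.43 log2 units (SE 0.28, adjusted p = 0.000251, limma). The rise of AGP30 in SRDX from 1.5 h to 4 h was 3.57 log2 units (SE 0.34, adjusted p = 1.45e-08) by limma. Root markers are given beside it because AGP30 is a root gene: the sum over 6 of them was 225 to 230 CPM in SRDX at 4 h and 211 to 231 CPM in SRDX at 1.5 h, a sum made up almost wholly of SCR and CASP1. The scarce root hair markers LRX1 and COBL9 were called higher. LRX1 averaged 2.23 CPM in SRDX at 4 h and 0.271 CPM at 1.5 h, and COBL9 averaged 0.761 CPM in SRDX at 4 h and 0.116 CPM at 1.5 h. EXPA7, at 0.465 CPM in SRDX at 4 h and 0.0619 CPM at 1.5 h, missed the threshold (adjusted p = 0.294, limma), and the other 3 root markers were not called. Their part in the rise of AGP30 was not tested.

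AT3G61490, of the pectin lyase-like family, fell in Col light and rose in SRDX at 4 h. Col had 33.2, 28.2 and 23.9 CPM in light, against 53.1, 40.8 and 46.4 CPM in the dark. SRDX had 29.2 and 31.6 CPM in darkness, 29.1 and 19.5 CPM at 1.5 h and 106 and 133 CPM at 4 h, and hy5 had 94 and 126 CPM at 4 h. The 4 libraries at 4 h were the highest of the series for this gene. The log2 difference was 2.27 log2 units (SE 0.2, adjusted p = 4.39e-09) in SRDX at 4 h and -0.7 log2 units (SE 0.17, adjusted p = 0.00114) in Col light, both by limma. AT5G62340 was higher in SRDX than in hy5 at 4 h, with 54.4 and 61 CPM in SRDX and 23.4 and 23.8 CPM in hy5. XTH7, a xyloglucan-remodelling enzyme, was at 21.3 and 17.5 CPM in SRDX at 4 h and 7.49 and 3.59 CPM at 1.5 h. In VP16, 5 of the 13 were higher than in Col at 1.5 h and 7 in the dark, with 0 lower at either time. Of all members 28.8% and 23.5% were higher there, and of all genes 12.5% and 12.6%. In SRDX 5 of the 13 were lower than in Col at each of these times and 0 higher. Of all members 26.5% and 15.2% were lower in SRDX at 1.5 h and in the dark, and of all genes 8.95% and 6.2%. The members as a whole thus leaned the same way. None of 16 genes of a list of cell wall growth was a member.

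Lipid transfer, wax and lipase genes are 8 members, of which 7 rose in SRDX from 1.5 h to 4 h with a group median of 1.41. Among all members 73.5% rose, and among all genes 10.8%. AT5G46890, of the lipid-transfer protein family, fell in light in VP16 and Col and rose in SRDX at 4 h. VP16 had 11.6, 10.1 and 14.6 CPM in light, against 33, 33.4 and 35.6 CPM in the dark. Col had 14.1, 13.5 and 9.24 CPM in light, against 18.6, 23 and 23.1 CPM in the dark. In SRDX it was at 5.01 and 7.81 CPM in darkness, 8.34 and 5.64 CPM at 1.5 h and 51.9 and 48.1 CPM at 4 h. CER4, the fatty acyl reductase that makes the primary alcohols of cuticular wax, rose in SRDX at 4 h by 1.45 log2 units (SE 0.29, adjusted p = 0.000636) and fell in Col light by 0.87 log2 units (SE 0.24, adjusted p = 0.00433) (limma).

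Late embryogenesis abundant proteins, which protect cells during drying, and the seed protein EM1 make up 5 members. All 5 rose in SRDX from 1.5 h to 4 h by a median of 1.65, where 73.5% of all members and 10.8% of all genes rose. None was called in light in VP16 or Col, and 1, AT5G54370, rose in OX. LEA7 was at 154 and 81.5 CPM in dark SRDX, 166 and 122 CPM at 1.5 h and 384 and 411 CPM at 4 h. Its call in SRDX at 4 h, 1.47 log2 units (SE 0.43, adjusted p = 0.0147) by limma, was lost in 3 of the 4 fits that left out 1 library. EM1 was at 2.43 and 2.42 CPM, 7.8 and 2.91 CPM and 32.4 and 35.1 CPM at these times in SRDX, and at 3.43 and 9.81 CPM in hy5 at 4 h. Both SRDX libraries at 4 h were above every other library of the series for EM1, and its rise was 2.56 log2 units (SE 0.46, adjusted p = 0.000189) by limma. AT5G54370, a protein related to this family, was at 79.7 and 78.5 CPM in SRDX at 4 h and 21.6 and 17.3 CPM at 1.5 h. The 5 seed markers other than EM1 summed to 68.0 to 76.1 CPM in SRDX at 4 h and 14.9 to 22.6 CPM in SRDX at 1.5 h, and 3 of these 5 were called higher and 1 lower. Their part in the rise of this group was not tested.

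Terpenoid, cytochrome P450, methyltransferase and glycosyltransferase genes are 11 members, and 10 of them rose in SRDX from 1.5 h to 4 h with a group median of 1.09. Rises were called there in 73.5% of all members and 10.8% of all genes. CYP706A6 was at 0 and 0 CPM in dark SRDX, 0.0773 and 0.124 CPM at 1.5 h and 3.56 and 3.57 CPM at 4 h. Of the 28 libraries from the dark and 1.5 h none exceeded 0.176 CPM, while the 4 libraries at 4 h held 3.56 CPM or more. AT5G38020, a methyltransferase-like gene, was at 13.1 and 13.9 CPM in SRDX at 4 h and 0.464 and 0.867 CPM at 1.5 h, and at 5.78 and 2.13 CPM in hy5 at 4 h. The 1 gene of this group not called in SRDX at 4 h, the P450 AT1G66540, was at 0.0672 and 0 CPM there. Col had 3.13, 2.97 and 3.27 CPM of AT1G66540 in light, against 0, 0.179 and 0.065 CPM in the dark. ICS2, a chloroplast isochorismate synthase, is not 1 of these 11. It was at 14.7 and 16.3 CPM, 22.9 and 14.4 CPM and 53.4 and 56.6 CPM over time in SRDX. In hy5 at 4 h ICS2 was at 75.4 and 65.5 CPM, and in the other 28 libraries it was at most 23.9 CPM.

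Transcription regulators and signals are 11 members, of which 6 rose in SRDX from 1.5 h to 4 h with a group median of 0.69. For this step 73.5% of all members and 10.8% of all genes rose. All 11 were higher in SRDX at 4 h than in dark SRDX, as were 81.1% of all members and 23.1% of all genes. CLE5, a signal peptide, rose by 2.1 log2 units (SE 0.27, adjusted p = 2e-06) in limma, with 5.24 and 6.16 CPM in SRDX at 4 h and 0.154 and 1.11 CPM at 1.5 h. AGL20, also called SOC1, a MADS-box promoter of flowering, was at 2.89 and 3.05 CPM in SRDX at 4 h and 7.49 and 11 CPM in hy5 at 4 h. Its log2 difference in SRDX from 1.5 h to 4 h was 0.36 and missed the threshold (adjusted p = 0.233, limma). ARR15, a cytokinin response regulator, was at 0.605 and 0.649 CPM in SRDX at 4 h and 4.07 and 1.65 CPM in hy5 at 4 h. Among the 58 members in no role group, 41 rose in SRDX at 4 h, where 73.5% of all members did. Without the second SRDX library at 1.5 h the count was 26.

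**Figure D4:**
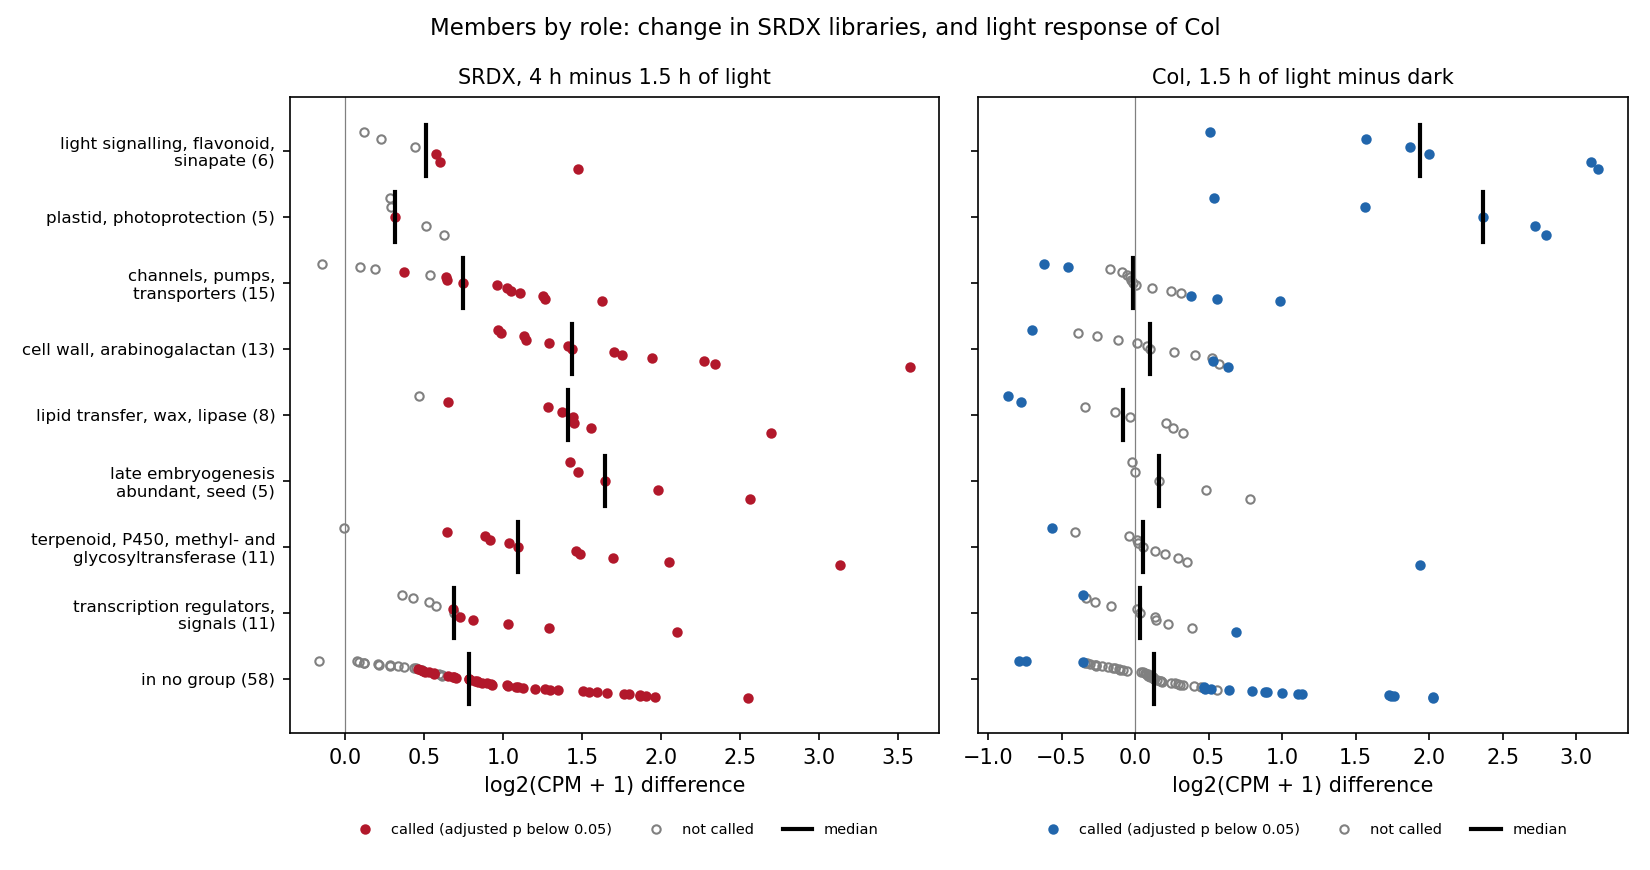
Log2(CPM + 1) difference (x axis) of each member by role group (rows, with the number of genes), for SRDX at 4 h minus 1.5 h on the left and Col light minus dark on the right, with filled points for calls, open points for no call and a black bar at the median. The groups were formed after the values were seen. The cell wall row lies between 0.96 and 3.57 on the left, with all 13 points filled.

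The rise of SRDX at 4 h was counted separately for members that rose early in other genotypes and for those that did not. Of the 26 members that rose after 1.5 h of light in Col, OX and VP16, 14 rose in SRDX from 1.5 h to 4 h, by a median of 0.48 over the 26. Of the 77 that rose in none of the 3, 61 did, by a median of 1.04, and 58 of 72 without the 8 members that passed the filter only through hy5 at 4 h. Without the second SRDX library at 1.5 h these counts were 5 of 26 and 45 of 77, and the difference between the counts was not tested. The 26 include ERD4, a membrane protein of the early dehydration response, which is abundant enough to be read well in every library. ERD4 was at 349 and 301 CPM in dark SRDX, 317 and 289 CPM at 1.5 h and 418 and 414 CPM at 4 h. At these times hy5 had 336, 366 and 329.6 CPM, 339.6, 363 and 333 CPM and 841 and 757 CPM. Col had 638, 748 and 785 CPM in light, against 305, 369 and 312 CPM in the dark. Both hy5 libraries at 4 h were therefore within or above the range of Col in light, and both SRDX libraries at 4 h were below it.

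The response to 1.5 h of light was compared directly between SRDX and Col by the interaction term of the same limma fit, an analysis added after the data had been seen. The Col response was larger for 17 members and smaller for 2, where 3.04% of all genes were called larger and 1.59% smaller, or 4.63% in either direction. HY5 itself is 1 of the 17, and the other 16 are all among the 26 members that rose in Col, OX and VP16, a set that was in part chosen by the same Col libraries. The members were also chosen for little change at 1.5 h in hy5, the mutant background of SRDX. A small SRDX response is thus not independent of that choice. AT1G06690 changed by 0.06 in SRDX and 2.79 in Col on the log2 scale, a difference of 2.73 (Col minus SRDX, adjusted p = 6.93e-14, limma). AT4G36530, of the α/β-hydrolase family, changed by -0.38 in SRDX and 1.74 in Col, a difference of 2.12 (adjusted p = 1.22e-08, limma). AT5G62340 and CER4 went the other way, higher by 0.82 and 0.45 in SRDX light than in SRDX dark and lower by 0.39 and 0.87 in Col light than in Col dark, as plain log2 differences. The calls of these last 2 differences were each lost in 5 of the 10 fits that left out 1 library, while those of AT1G06690 and AT4G36530 held in all 10.

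**Figure D5:**
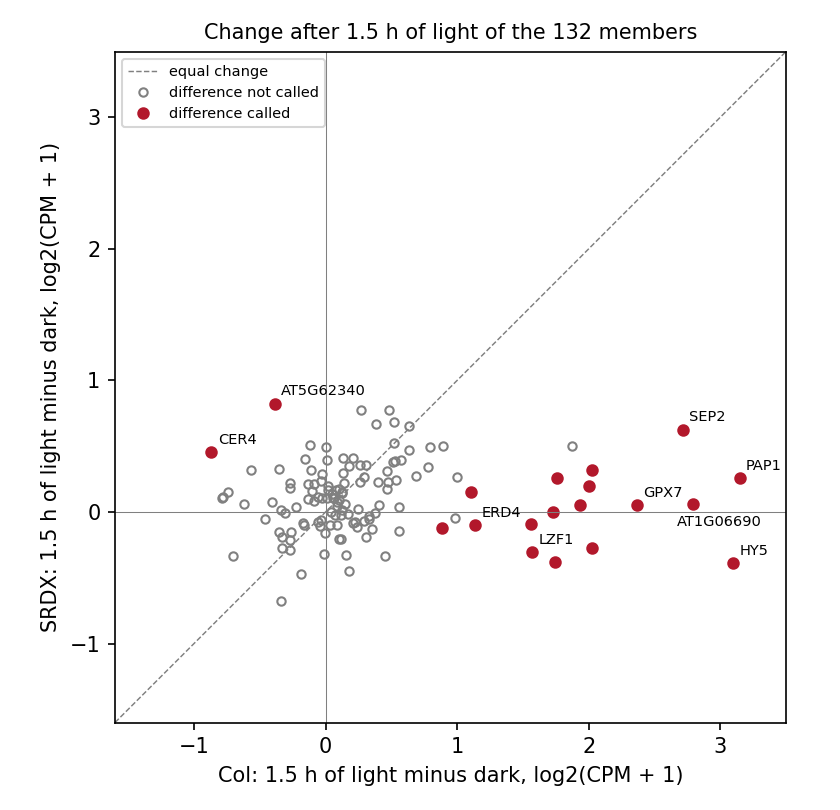
Change after 1.5 h of light in SRDX (y axis) and in Col (x axis) for the 132 members, as log2(CPM + 1) light minus dark, with filled points where the difference between the responses was called and a dashed line at equal change. HY5, PAP1, AT1G06690, SEP2 and GPX7 lie far to the right and near 0 to 0.63 in SRDX, except HY5 at -0.39.

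At the same time in light, members were often lower in SRDX than in Col. At 1.5 h, 12 were higher and 35 lower in SRDX, where the shares over all genes were 10.6% higher and 8.95% lower. In the dark 8 were higher and 20 lower, where the shares were 8.49% and 6.2%. The dark count of 28 was 17 without the first Col library or without the second SRDX library and 18 without the first SRDX library. The HY5 reads of the added gene are among the higher ones. Of the 26 members that rose early, 18 were lower and 0 higher in SRDX at 1.5 h, but the 26 were chosen in part for high values in these same Col libraries, so this count supports nothing by itself. VP16 leaned the other way: 38 were higher and 17 lower in VP16 than in Col at 1.5 h, where 12.5% and 10.3% of all genes were (22.8% in either direction). In the dark 31 were higher and 14 lower, where 12.6% and 10.8% were (23.3% in either direction). In OX at 1.5 h, 26 were higher and 13 lower, where 10.8% and 9.13% of all genes were (19.9% in either direction), and the total of 39 was 24 without the second Col light library. In dark OX, 13 were higher and 19 lower, where 9.11% and 7.12% were, and the total of 32 was 20 without the first Col or the second OX dark library, 21 without the third OX one and 19 with these 2 groups fitted alone. These comparisons share the Col libraries.

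AT2G16005, whose promoter is shown above and whose protein has a lipid-recognition domain, was the member farthest below Col in VP16. VP16 had 1.4, 0.411 and 0.0657 CPM in light and 0.9, 1.06 and 0.57 CPM in the dark. SRDX had 4.1 and 5.14 CPM at 1.5 h and 10.2 and 9.02 CPM at 4 h, and hy5 at 4 h had 45.5 and 28.7 CPM. Col had 18, 19.6 and 22.3 CPM in light and 17.1, 15.6 and 17.4 CPM in the dark, so that all VP16 and SRDX libraries up to 1.5 h lay below all Col libraries. The difference of VP16 from Col was -3.77 log2 units (SE 0.2, adjusted p = 2.5e-14) in light and -3.27 log2 units (SE 0.2, adjusted p = 6.88e-13) in the dark (limma). AT5G54370 and CLE5 were higher in VP16 than in Col at both times, by 1.91 and 1.93 in light and by 2.33 and 1.78 in the dark. ICS2 was lower in VP16 by 1.19 in light and 0.97 in the dark, both past the test. In OX, AT1G57770, an oxidoreductase, was higher than in Col by 1.56 in light and 1.77 in the dark, with 30.7, 28.8 and 32.4 CPM in dark OX and 9.24, 6.86 and 8.91 CPM in dark Col. NRT1.7 was lower than in Col in the dark of all 3 lines, by log2 differences of -1.64 in SRDX, -1.49 in VP16 and -1.34 in OX.

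SRDX and hy5 at 4 h are given side by side with no test, since the hy5 libraries at 4 h were chosen to be high. SRDX was below hy5 for 92 of 132 members and above it for 40, with a median log2 difference of -0.43. For 77 members both SRDX libraries were below both hy5 libraries, and for 26 they were above both. No share over all genes was counted for this comparison, and 2 against 2 libraries often do not overlap. Between 1.5 h and 4 h in SRDX, 31.4% of all genes were higher without overlap and 35.6% lower. By role, SRDX was lower in all 5 genes of the plastid and photoprotection group, AT4G15700 among them. It was also lower in 13 of 15 transporters and in 10 of 11 regulators and signals. It was higher in all 5 late embryogenesis genes and in 9 of 13 cell wall genes. Of the 26 early members, 24 were lower in SRDX than in hy5 at 4 h, and 18 were lower in SRDX at 4 h than in Col at 1.5 h. Over the 12 groups, the highest mean was that of hy5 at 4 h for 77 members and of SRDX at 4 h for 35, and a group at 1.5 h or in the dark was highest for the others, most often OX in light with 10.

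The members are spread over the 5 chromosomes. AT3G14530 and AT3G14540 are adjacent terpenoid synthase genes that may share reads, KNAT4 and AT5G11070 are also adjacent, and 4 further pairs have 1 or 2 genes between them.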

How the data were processed

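Poly(A) RNA of whole seedlings was sequenced with a stranded kit, and 32 libraries in 12 groups were analysed. The submitters' processing notes name the aligners Bowtie2 2.2.2.0 and TopHat2 2.0.11 and the TAIR10 genome, the counter HTSeq 0.6.0 beside SAMtools 0.1.19.0, and edgeR 3.16.5 and CASAVA 1.8.2. Whether counting used strand is not given in the sources used here. The authors deposited a signal per gene and library, named CPM in the header: counts divided by a scaled library size, with column sums of 925942 to 1066829. Whole reads were recovered from its steps (100.0% of values whole within 0.01 reads). The planned test for CPM was kept, although the columns do not sum to the same total. All 19685 deposited genes had 1 CPM in at least 2 libraries, so the planned filter at that level removed none. Limma 3.58.1 (R 4.3.3) was fitted on log2(CPM + 1) with a mean per group over all libraries, and p-values were adjusted by Benjamini-Hochberg over all genes for each comparison. A call is an adjusted p below 0.05. Fold changes on this scale understate those of low genes. Other settings tried were no filter, which is the same fit here, a mean of 5 CPM, a pseudocount of 0.25, median-of-ratios scaling, the compared groups alone, a replicate block, edgeR 4.0.16 and DESeq2 1.42.0 on the recovered reads, and leaving out each library. The members, lists and tests were chosen with earlier results of these data known. The genes named were drawn from the 12 largest late rises of hy5, the 10 largest called rises in SRDX and the 5 highest and 5 lowest calls of each comparison. Members on a list, genes next to the limits, HY5 and HYH were also eligible. The late rises of hy5 and the calls of the other comparisons needed a mean of 5 CPM in the higher group, and calls needed libraries without overlap. Not every eligible gene is named above, and no value of HYH is given. Examples of the role groups outside this rule were chosen after their values were seen. The library depths of 7499581 to 21420680 reads set the precision of low genes. Promoters were read from RefSeq TAIR10.1 with pyfaidx 0.9.0.4, and the scripts were tested on simulated data. The deposited table of fold changes was not used.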

Additional observations from a re-analysis of the deposited data

Results flagged for a closer look

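The response to 1.5 h of light differed between SRDX and Col for 19 members by the interaction term of the limma fit (adjusted p below 0.05 over all genes), which was added after the data had been seen. Values are Col minus SRDX on the log2(CPM + 1) scale, so a positive one means a larger rise in Col. The members were chosen for little change at 1.5 h in hy5, the mutant background of SRDX. Among regulators and flavonoid or sinapate genes the difference was 3.48 for HY5, 2.89 for PAP1, 1.88 for LZF1 and 1.8 for AT4G27560. HY5 reads in SRDX include those of the added gene. Among plastid and photoprotection genes it was 2.73 for AT1G06690, 2.32 for GPX7, 2.09 for SEP2 and 1.65 for AT1G57770. In other genes it was 2.29 for AT2G23910, 2.12 for AT4G36530, 1.88 for AT1G66540, 1.72 for LPR1, 1.71 for AT3G57830, 1.50 for AT5G65340, 1.23 for ERD4, 1.01 for AT3G05936 and 0.95 for GCL1. The difference was negative for AT5G62340, at -1.21, and for CER4, at -1.32, and each of these calls was lost in 5 of the 10 fits that left out 1 library.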

How the results depend on the processing

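Counts here are members called in either direction. With a minimum mean of 5 CPM, 64 members were left. Then 52 were called in SRDX at 4 h against 1.5 h, 52 against the dark, 26 in Col light, 34 in OX light, 34 in VP16 light, 29 in VP16 against Col and 30 in SRDX against Col at 1.5 h, and 12 for the difference between the light responses of SRDX and Col; the filter itself removes members. In dark OX against Col, 19 were called with the compared groups alone. With the replicate number as a block, 21 were called there and 9 in SRDX at 1.5 h against the dark. The replicate numbers were not treated as pairs, since no comparison with 3 pairs had every correlation over 0.1. In OX light against dark these were 0.363, 0.124 and 0.0942, so pairing is not excluded. Without 1 library each, the counts were 63 to 84 in SRDX at 4 h against 1.5 h, 92 to 95 against the dark, 3 to 8 in SRDX at 1.5 h, 32 to 41 in Col light, 49 to 55 in OX light and 44 to 55 in VP16 light. Against Col they were 32 to 46 at 1.5 h and 17 to 29 in the dark for SRDX, 45 to 51 and 32 to 43 for VP16, and 24 to 45 and 20 to 27 for OX. The difference between light responses gave 15 to 19, and the choice of members 110 to 211 genes. A pseudocount of 0.25 chose 170 genes, 96 of them members. Of 1468 alternatives of 110 named results, 1424 kept direction and call, 44 lost the call and 0 reversed. The cause of these changes was not tested. Most named results were picked as the largest calls, which favours keeping the call. Over all member calls, fewer held in every fit that left out 1 library. These were 15 of 32 in dark OX against Col, 28 of 44 in Col light and 39 of 55 in OX light. Depth limits genes near 3 reads, such as PAP1 and GPX7 in the dark.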
